A study of Mus musculus with 19 samples.

Results

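Ribosomal protein pseudogenes were followed in the RNA of 19 single mouse embryos. The members are the gene rows whose symbol starts with Rpl or Rps and contains -ps, whose deposited type is a pseudogene, and whose raw counts summed over the 19 embryos reached 10. That rule took 245 of the 53379 gene rows. Another 34 rows of the same naming and type fell short of it, 7 of them without a count and 27 with 1 to 9 counts, and 9 rows with a -ps symbol were left out because the deposited type was protein coding. The symbol before -ps names the parent, the working gene from which the pseudogene was copied. The members came from 59 parents, 36 of the large and 23 of the small ribosomal subunit, with 144 and 101 members. Members were selected on their summed counts in these same embryos, so that they were detected is not a finding about them.

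All embryos were B6D2F1, made by in vitro fertilisation, cultured in KSOM medium at 37 degrees C under 5% CO2, and lysed one by one 96 hours after insemination. The parents of the Alyref cross were both heterozygous (Alyref+/-) for a deletion in Alyref, an mRNA export adaptor. Its embryos were 2 morulae labelled Alyref KO, with 3 morulae and 3 blastocysts that were not KO. The parents of the Gabpb1 cross were both Gabpb1+/-, where Gabpb1 encodes the part of the GABP transcription factor that does not itself bind DNA. Its embryos were 3 morulae labelled Gabpb1 KO, with 2 morulae and 3 blastocysts that were not KO. The other 3 blastocysts had wild-type (WT) parents. A non-KO embryo of either cross may be WT or heterozygous, and the KO state was read by the submitters from the embryos' own reads over the deleted region. The labels do not tie an embryo to its parents, so p-values measure only the spread between the embryos sampled.

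Ribosomal proteins are made from abundant, short, spliced mRNAs, and preimplantation embryos build up their ribosome supply after the zygotic genome is switched on. Processed pseudogenes arise when such an mRNA is reverse transcribed in the germ line and inserted elsewhere in the genome, without introns and usually without a promoter. Recent copies differ from the parent mRNA at few bases. A short read from a copy and one from its parent can therefore be the same string of letters.

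Gene counts ranged from 7486125 to 31536282 per embryo and ERCC spike-in RNA, a set of artificial transcripts added after lysis, took 0.501 to 1.95% of the counts. In CPM, a gene's counts scaled to the size of its library, Alyref stood at 47.8 and 58.5 in the morulae labelled Alyref KO against 211, 291 and 162 in the other morulae of that cross. Gabpb1 stood at 78.1, 259 and 150 CPM in the morulae labelled Gabpb1 KO against 93.8 and 83.2 in the non-KO morulae, so its row total was not lower, and counts per gene do not show the deleted exons. The 5 trophectoderm markers summed to 3850 to 6540 CPM in the blastocysts and to 243 to 3910 CPM in the morulae. Krt8 and Krt18 made up most of this sum, with less from Cdx2, Gata3 and Eomes. Cumulus and granulosa markers summed to at most 0.709 CPM and sperm markers to at most 1.07 CPM in any embryo.

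The label pseudogene was set against the annotated sequences. GENCODE M21 (GRCm38, the mm10 build) holds 235 of the 245 members, 234 of which could be aligned to a complete coding transcript of the parent, with a median identity of 97.2%. Read on the annotated strand, the start codon was kept in 198 of the 234. A frame of the parent's full length was scored in 88 of the 234. Some members outside these 88 had as many codons before any stop as the parent, such as Rpl10-ps5 (214) and Rps13-ps2 (151). The 88 are therefore a lower bound for members with a frame of that length. The deposited type was processed pseudogene for 240 members and transcribed processed pseudogene for 5, namely Rpl10-ps1, Rps26-ps1, Rpl29-ps2, Rpl39-ps and Rps2-ps10. A parent row of protein-coding type exists for 244 members, while the parent of Rps4l-ps, Rps4l, is itself listed as a pseudogene. In 3 members little of the annotated strand aligned to the named parent. Rpl13-ps1 is annotated on the opposite strand to the copy, since 11.2% of it aligned to Rpl13 as annotated and 95.2% (96.7% identical) in the other orientation. Rpl18-ps1 aligned to Rpl18 over 11.4% as annotated and 6.1% in the other orientation, and Rps7-ps2 to Rps7 over 2.82% and 2.08%.

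How far a read can tell a member from other genes was measured with words of 50 bases, the length of the first read. A median of 45.6% of a member's words occurred letter for letter in the transcript of another gene, and 24.7% in the parent. All words of 32 members occurred in another gene, and all words of 11 occurred in the parent. At the other end, 9 members shared no word with any other gene, and the highest of these had 125 counts in all embryos together (median 15), against a median of 12540 counts (range 110 to 104714) for the 32. The gene sharing the most words was the parent for 88 members and another gene, often an unnamed copy, for 138.

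Rps6-ps4, on the minus strand of chromosome 2, shows the extreme of full identity. The stretch is shown because it opens the coding sequence of Rps6, the small subunit protein phosphorylated by the S6 kinases, and no base in it, nor any word of the whole 750-base member, separates the pseudogene from its parent. It lies at chr2:75191733-75191822.
Rps6-ps4: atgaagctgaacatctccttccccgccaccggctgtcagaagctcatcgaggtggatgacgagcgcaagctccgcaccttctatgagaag
Rps6: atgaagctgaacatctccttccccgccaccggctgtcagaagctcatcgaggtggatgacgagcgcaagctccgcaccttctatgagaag

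Copies that are identical to one another were compared by their counts. Rps12 and Rpl31 were the parents with the most members, 21 each, and 14 of the 21 Rps12 members lie on chromosome X. Of these, 9 sit on the minus strand between 124349725 and 125987364, each 399 bases long with 36.6% of its words in Rps12, and they hold only 3 distinct sequences. Rps12-ps11, Rps12-ps12, Rps12-ps13, Rps12-ps14 and Rps12-ps15 have identical transcripts, and their totals were 667, 665, 667, 665 and 662 counts. In 13 of the 19 embryos all 5 rows held exactly the same count, and in the others they differed by 1. Rps12-ps6, Rps12-ps17 and Rps12-ps18, also identical to one another, totalled 611, 614 and 607 counts and were equal in 12 embryos. The rows of each of these Rps12 sets do not hold independent counts. The other sets of identical members were not equal in any embryo. Rpl35a-ps2, Rpl35a-ps3, Rpl35a-ps4 and Rpl35a-ps6 ranged from 10286 to 11386 counts and differed by up to 118 counts within an embryo, and the pair Rps19-ps1 and Rps19-ps2 had 23129 and 23316 counts and differed by up to 26. How reads that match several rows were counted is therefore not settled for all members.

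The stretch of the Rps12 copies with the most differences from the parent is printed with the parent's, with the differing bases in capitals. Rps12-ps12 lies at chrX:124599666-124599755 and Rps12-ps17 at chrX:125548075-125548164, both on the minus strand, and Rps12 on chromosome 10. Counted from 1 at the left end, parent base first, Rps12-ps12 differs by T14A, C38G, C65A and C90T. Rps12-ps17 has those 4 differences and 1 more.
Rps12: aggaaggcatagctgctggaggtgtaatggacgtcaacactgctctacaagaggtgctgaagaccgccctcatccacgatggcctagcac
Rps12-ps12: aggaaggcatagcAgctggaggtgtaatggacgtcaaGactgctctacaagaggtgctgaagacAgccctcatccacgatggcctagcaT
Rps12-ps17: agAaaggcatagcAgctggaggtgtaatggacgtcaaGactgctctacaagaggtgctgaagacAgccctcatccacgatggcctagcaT

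Levels of different members were compared per length, as FPKM, which is CPM per kilobase of the deposited length. Mean FPKM over the 19 embryos ran from 0.0555 to 566, with a median of 19.5. The median was 17.9 for large subunit members and 22.5 for small subunit members. The 10 highest were Rps16-ps2 (566), Rps6-ps4 (525), Rps25-ps1 (513), Rpl36a-ps3 (477), Rpl14-ps1 (465), Rpl19-ps11 (415), Rps18-ps3 (381), Rpl31-ps8 (349), Rpl34-ps1 (345) and Rps19-ps6 (335). Of these 10, 9 shared between 59.3% and 100% of their words with their parent, and the exception was Rpl36a-ps3. A count was present in all 19 embryos for 218 members, and 229 to 241 members were counted in each embryo.

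By mean CPM every one of the 244 members with a parent row stood below its parent, and per length most did. In 1 embryo, the second non-KO morula of the Alyref cross, Rpl36-ps8 stood above Rpl36, at 198 against 194 CPM. The median member had 3.19% of its parent's mean CPM, and the highest, Rpl36a-ps3, had 70.8% (153 against 217 CPM). Per length the median was 13.8% of the parent's mean FPKM, with quartiles at 1.67% and 59.8%, 110 members stood under 10%, and 41 stood above the parent. These 41 rest on the deposited lengths, which are longer for the parents, since none of the 41 was above its parent by mean CPM. Rps15a-ps6 was highest on the FPKM scale, at 115 against 30.6 for Rps15a (376%), but it had 45.3 against 192 CPM, with deposited lengths of 393 and 6270 bases. Rps16-ps2, at 566 FPKM, likewise had 249 CPM against 413 for Rps16. None of the words of Rpl36a-ps3 occurred in Rpl36a, and 81.6% of them occurred in Rpl36al, the intronless autosomal relative of the X-linked Rpl36a.

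The named parent of Rpl36a-ps3 is thus not its nearest gene by sequence. The stretch is shown with bases that differ from Rpl36a in capitals. Rpl36a-ps3 lies at chr6:136488897-136488986 on the plus strand, Rpl36a on chromosome X and Rpl36al on chromosome 12. The pseudogene differs from Rpl36a at 17 of 90 bases, and Rpl36al differs from Rpl36a at 16.
Rpl36a: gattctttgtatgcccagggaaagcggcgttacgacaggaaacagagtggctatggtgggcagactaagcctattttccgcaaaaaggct
Rpl36a-ps3: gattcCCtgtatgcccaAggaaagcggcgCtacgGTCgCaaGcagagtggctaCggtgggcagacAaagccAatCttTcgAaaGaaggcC
Rpl36al: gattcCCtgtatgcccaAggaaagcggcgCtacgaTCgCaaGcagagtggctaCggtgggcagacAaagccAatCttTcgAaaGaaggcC

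The families differed in how their counts were divided. In the Rpl31 family mean FPKM ran from 0.121 in Rpl31-ps2 to 349 in Rpl31-ps8, and Rpl31-ps8 alone, all of whose words occur in Rpl31, took 38.0% of the family's 92186 counts. In the Rps12 family the range was 0.611 in Rps12-ps26 to 45.3 in Rps12-ps9, against 66.4 FPKM for Rps12. A single member was found for 17 parents, and 5 or more for 18 parents. The Rps6 family had 4 members and 144452 counts, of which Rps6-ps4 held 72.5%.

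Across embryos most members kept a steady ratio to their parent. The SD over the 19 embryos of the log2 ratio of member to parent, on CPM + 1, was taken for 184 tested members with a mean of 1 CPM or more and a sequence. Its median was 0.17 in the 28 members with under 10% of their words in the parent, 0.10 in the 85 with 10 to under 50%, 0.06 in the 56 with 50 to under 90% and 0.04 in the 15 with 90% or more. The median of mean CPM over the same classes was 2.37, 9.16, 58.5 and 130, so sharing and depth moved together, and their parts in the SD were not separated. Rpl36-ps8 had the widest ratio at 1.68, followed by Rps15a-ps8 at 0.89 and Rplp0-ps1 at 0.88. Rps6-ps4 was at 0.023.

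**Figure D1:**
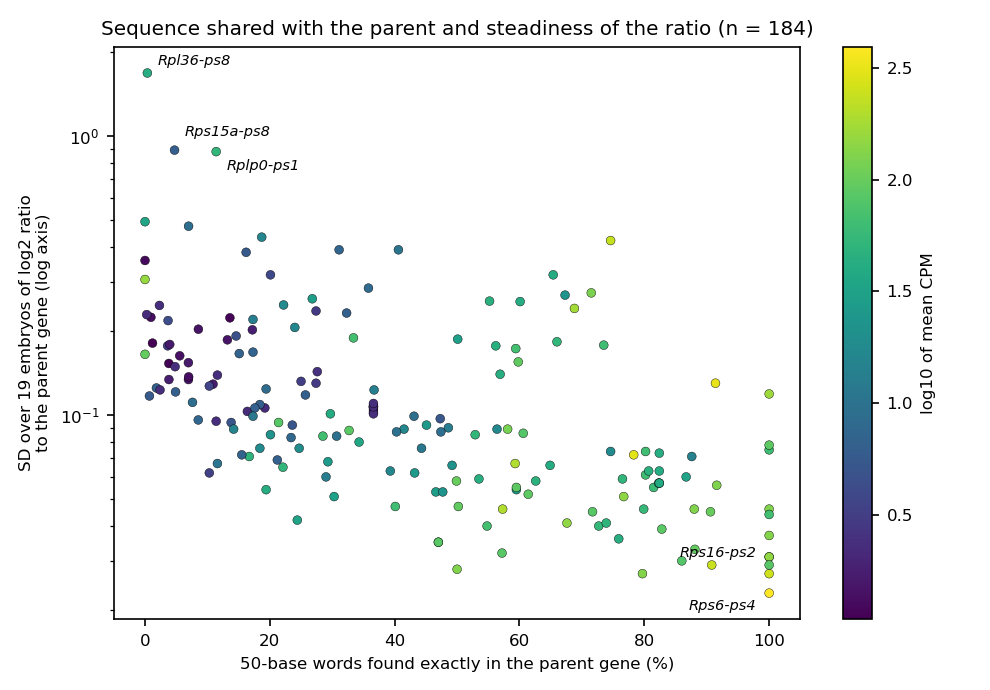
Each point is a tested member with a mean of 1 CPM or more and an annotated sequence (n = 184), placed by the percentage of its 50-base words found in the parent gene (x) and by the SD over 19 embryos of its log2 ratio to the parent (y, log axis), coloured by log10 of mean CPM. Rpl36-ps8 stands highest at 1.68 with 0.376% of its words in Rpl36, and Rps6-ps4 lies at the bottom right at 0.023 with 100%.

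Summed over all 245 members, the level was 7410 to 12000 CPM per embryo, or 0.748 to 1.09% of gene counts. The means were 9830 ± 1650 CPM (SD, n = 2) in Alyref KO morulae, 10700 ± 1280 (n = 3) in the other Alyref cross morulae, 9480 ± 805 (n = 3) in morulae labelled Gabpb1 KO and 7920 ± 516 (n = 2) in the other Gabpb1 cross morulae. In blastocysts they were 8430 ± 366 (n = 3) in the Alyref cross, 8190 ± 859 (n = 3) in the Gabpb1 cross and 8960 ± 1290 (n = 3) in the WT. The 3 morulae labelled Gabpb1 KO lay at 10300, 9450 and 8690 CPM, above both non-KO morulae at 7560 and 8290. The 3 non-KO morulae of the Alyref cross, at 10600, 12000 and 9440 CPM, lay above both non-KO morulae of the Gabpb1 cross and above the 3 blastocysts of their own cross. The sum of the 58 parent genes ran from 19900 to 33200 CPM, and the members' share of the counts of members and parents stayed between 25.4 and 27.6% in every embryo. Since members share sequence with each other and with parents, and the treatment of such reads is not known, these sums and shares may hold some reads more than once.

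**Figure D2:**
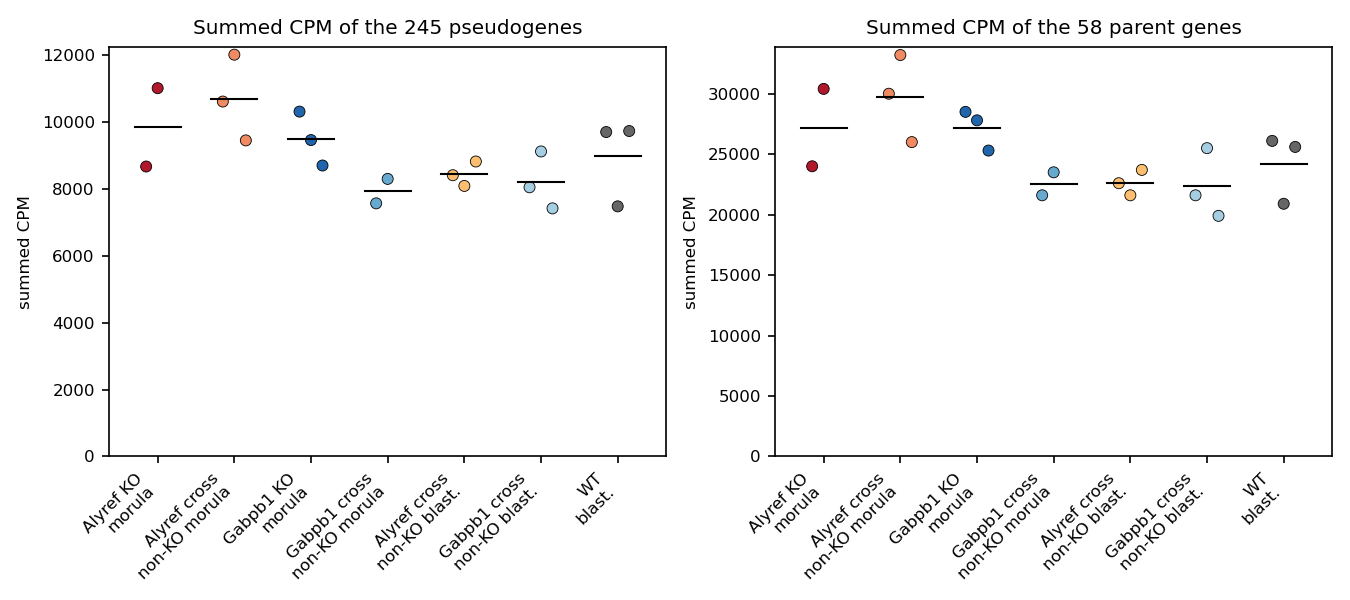
Summed CPM of the 245 members (left) and of their 58 protein-coding parent genes (right) in each embryo (points), with group means (lines) and the y axes starting at 0. Members and parents are both high in non-KO morulae of the Alyref cross (9440 to 12000 CPM for the members) and low in non-KO morulae of the Gabpb1 cross (7560 and 8290 CPM).

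A model across all genes was then used for 7 comparisons. A gene was tested where it reached 1 FPKM in at least 2 embryos, which held for 216 members (121 large subunit, 95 small subunit). The 29 members that were not tested had 10 to 121 counts and at most 0.459 mean CPM. A member is called when its p from edgeR's quasi-likelihood test, adjusted by Benjamini-Hochberg over the 18410 genes tested, is under 0.05. Fold changes are log2 of CPM ratios with TMM scaling unless ERCC scaling is named.

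In the Alyref KO comparison no member was called, against 0.228% of all genes tested. An unadjusted p under 0.05 was found for 12 of 216 members and for 2226 of 18410 genes. DESeq2 called no member either, against 193 genes higher and 309 lower. The median log2 fold change, KO minus non-KO, was -0.05 over the 216 members, with 95 higher and 121 lower. It was -0.13 over 87 cytosolic ribosomal protein genes and -0.04 over all genes, and with ERCC scaling -0.03 over the members and -0.06 over all genes.

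In the Gabpb1 KO comparison 1 member, Rpl36-ps8, was called, and it was higher in the morulae labelled KO. Among all genes tested 1.65% were called. An unadjusted p under 0.05 was found for 17 of 216 members and for 3475 of 18410 genes, a larger share. DESeq2 called 4 members, all higher, against 479 genes higher and 805 lower among all tested, also a larger share. The median log2 fold change was 0.31 over the members, with 186 of 216 higher, 0.28 over the ribosomal protein genes and 0.06 over all genes. With ERCC scaling the members' median turned to -0.12 with 62 higher, while that of all genes moved to -0.40, so the members stood above the median of all genes under both scalings and their direction against spike-in RNA was the opposite. The trophectoderm markers summed to 243 to 2390 CPM in the morulae labelled Gabpb1 KO and to 2420 to 3910 CPM in the non-KO morulae. Taken singly, Krt8 and Eomes did not overlap between these groups, while Cdx2, Gata3 and Krt18 did. The part of the difference in the sum was not tested.

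The difference between the KO effects, Gabpb1 minus Alyref, gave no called member, against 0.907% of all genes. An unadjusted p under 0.05 was found for 24 members and for 3103 of 18410 genes. DESeq2 called 1 member, against 412 genes higher and 482 lower among all tested. The members' median of that difference was 0.32, against 0.39 for ribosomal protein genes and 0.12 for all genes, and with ERCC scaling it was -0.13 against -0.33 for all genes.

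In the Alyref cross, blastocysts compared with non-KO morulae gave 8 called members, 7 lower and 1 higher. Among all genes 13.0% were called, 7.43% lower and 5.62% higher, so 8 of 216 members is a smaller share than that of all genes. Another 32 of the 40 members with an unadjusted p under 0.05 did not pass the adjustment. Such a p was found for 5724 of 18410 genes, a larger share. DESeq2 called 18 members, 17 lower and 1 higher, against 1976 genes lower and 1786 higher among all tested, also a larger share. The median log2 fold change was -0.32 over the members, with 184 lower and 32 higher, -0.34 over ribosomal protein genes and -0.04 over all genes. With ERCC scaling it was -0.56 over the members and -0.34 over all genes.

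In the Gabpb1 cross the same stage comparison called no member and 0.0% of all genes. An unadjusted p under 0.05 was found for 2 members and for 1237 of 18410 genes. DESeq2 called no member, against 12 genes higher and 45 lower. The members' median was 0.07, against 0.02 for all genes, and with ERCC scaling both turned to -0.81 and -0.86. The stage comparisons of the crosses were not tested against each other.

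Non-KO morulae of the Gabpb1 cross compared with those of the Alyref cross gave 1 called member, against 1.85% of all genes. It was again Rpl36-ps8, which was lower in the Gabpb1 cross. DESeq2 called 12 members, all lower, against 914 genes higher and 795 lower among all 18410 tested. The median log2 fold change was -0.42 over the members, with 200 of 216 lower, and -0.44 over ribosomal protein genes, against -0.03 over all genes. With ERCC scaling the members' median was 0.08 with 153 higher, and that of all genes was 0.39. Cross and fertilisation cannot be told apart here. The trophectoderm markers summed to 485 to 1780 CPM in the Alyref cross and to 2420 to 3910 CPM in the Gabpb1 cross. Taken singly, Krt8 and Krt18 did not overlap between these morulae, while Cdx2, Gata3 and Eomes did. Non-KO blastocysts of both crosses compared with WT blastocysts gave no called member and 0.0% of all genes. An unadjusted p under 0.05 was found for 4 members and for 837 of 18410 genes. DESeq2 called no member, against 15 genes higher and 18 lower. The members' median was -0.18, the ribosomal protein genes' -0.11 and that of all genes -0.01, and with ERCC scaling the members stood at -0.07 and all genes at 0.08. The Gabpb1 KO, stage and between-cross comparisons share non-KO morulae, so their values are not independent of each other.

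**Figure D3:**
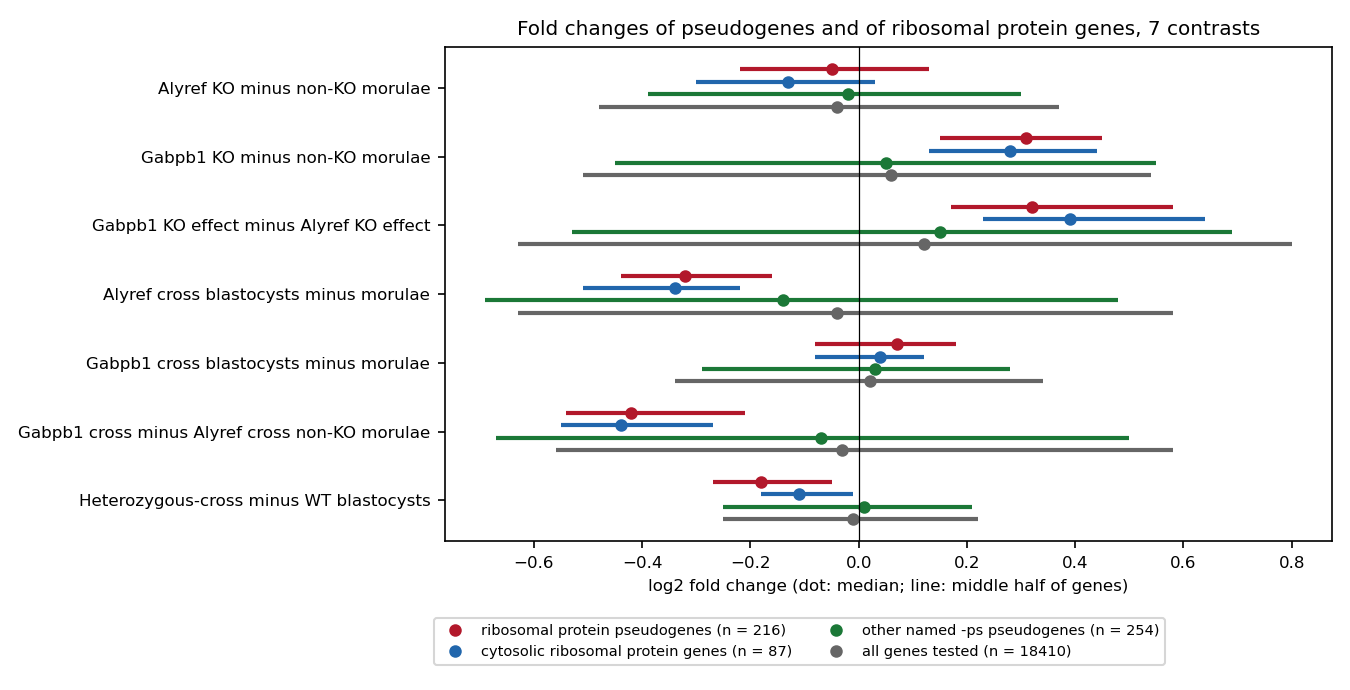
Median (dot) and range from the lower to the upper quartile (line) of log2 fold changes with TMM scaling in 7 comparisons for 216 members, 87 cytosolic ribosomal protein genes, 254 other named -ps pseudogenes and all 18410 genes tested. Members and ribosomal protein genes lie close together, near 0.3 in the Gabpb1 KO comparison and near -0.4 between the non-KO morulae, and under ERCC scaling the members' medians in these comparisons are -0.12 and 0.08.

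Member and parent moved by similar amounts. The member's log2 fold change lay within 0.5 of its parent's in 94.0 to 96.7% of the 215 pairs tested, depending on the comparison, and the median difference lay between -0.05 and 0.05. Pairs that differed by 1 or more numbered 3 to 6 in a comparison. Rpl36-ps8 was among them in the Gabpb1 KO comparison, the difference of the KO effects, the Alyref cross stage comparison and the comparison of the non-KO morulae. Since many such pairs share sequence and may share reads, their likeness is not independent support for a change of the pseudogene.

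Rpl36-ps8 was the member that departed furthest from its parent, Rpl36, a protein of the large subunit. It is a 315-base processed pseudogene (ENSMUSG00000075390.5) on the minus strand of chromosome 4 at chr4:116839907-116840221, 95.9% identical to Rpl36, with an open frame of 104 codons against the 105 of Rpl36. Its differences are spread out, so that 0.376% of its words occur in Rpl36, but 89.1% of them (237 of 266) occur in Gm5745, a processed pseudogene on chromosome 9. The stretch is shown because it separates both copies from the parent, with differing bases in capitals. Rpl36-ps8 is shown from chr4:116840128-116840217 and Gm5745 from chr9:73175648-73175737, both minus strand, and Rpl36 lies on chromosome 17. Counted from 1 at the left end, parent base first, the differences are T2C, A53G, C56T, T62C, A83C and C90T, and the copies are identical to each other here.
Rpl36: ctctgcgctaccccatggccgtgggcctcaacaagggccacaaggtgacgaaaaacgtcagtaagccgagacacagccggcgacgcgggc
Rpl36-ps8: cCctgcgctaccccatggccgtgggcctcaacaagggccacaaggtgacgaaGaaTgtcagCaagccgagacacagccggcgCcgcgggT
Gm5745: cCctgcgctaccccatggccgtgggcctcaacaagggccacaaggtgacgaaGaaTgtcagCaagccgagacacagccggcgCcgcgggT

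Rpl36-ps8 was high in all morulae but the non-KO morulae of the Gabpb1 cross, and low in all blastocysts. It stood at 63.2 and 129 CPM in the Alyref KO morulae, at 79.6, 198 and 32.5 CPM in the other Alyref cross morulae, and at 59.8, 73.3 and 69.5 CPM in the morulae labelled Gabpb1 KO. In the non-KO morulae of the Gabpb1 cross it stood at 4.26 and 11.6 CPM. The blastocysts held 6.07, 12 and 9.77 CPM in the Alyref cross, 12.3, 20.6 and 5.40 in the Gabpb1 cross and 9.84, 5.44 and 5.79 in the WT. The morulae labelled Gabpb1 KO did not overlap with the non-KO morulae of that cross, nor the non-KO morulae of the Alyref cross with its blastocysts. Rpl36-ps8 was called in both comparisons, so the lack of overlap is not further support. The parent Rpl36 stayed between 138 and 244 CPM in all 19 embryos and was called in none of the comparisons.

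Rpl36-ps8 rose in the morulae labelled Gabpb1 KO by 3.09 on the log2 scale (SE 0.74, adjusted p = 0.0472, higher in 3 of 3 morulae). In the Alyref cross it was lower by 3.48 in blastocysts than in non-KO morulae of the same age (SE 0.63, edgeR adjusted p = 0.0078). Between the non-KO morulae, Gabpb1 cross minus Alyref cross, its log2 difference was -3.70 (SE 0.76, edgeR adjusted p = 0.0339). The value for Rpl36 in these comparisons was 0.27, -0.21 and -0.31, with adjusted p from edgeR of 0.468, 0.417 and 0.358. The difference between the KO effects on Rpl36-ps8 was 3.19 (SE 0.97) with an edgeR adjusted p of 0.122. Leaving out 1 embryo at a time kept the Alyref stage call in each of 6 fits (-3.91 to -2.57), while the Gabpb1 KO call was kept in 1 of 5 fits, that without the first morula labelled KO (2.54 to 3.98, adjusted p up to 0.235 with edgeR). The call between the non-KO morulae was kept in 1 of 5, that without the third Alyref cross morula (-4.59 to -2.81, edgeR adjusted p up to 0.175). With ERCC scaling these log2 differences were 2.57 and -2.82, with edgeR adjusted p of 0.24 and 0.213. The 5 trophectoderm markers summed to 243 to 2390 CPM in the morulae labelled Gabpb1 KO against 2420 to 3910 CPM in the other morulae of that cross, and to 485 to 1780 CPM in non-KO Alyref cross morulae against 4000 to 6540 CPM in the blastocysts. Their part in the result was not tested. In RNA of a whole embryo, fewer cells of a type and less RNA per cell cannot be told apart.

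Over the 19 embryos, the tested genes most like Rpl36-ps8 in log2(CPM + 1) were Gm5745 (Pearson r 0.995), the processed pseudogene Gm5612 on chromosome 9 (0.967) and Pelp1, which encodes a scaffold of a ribosomal RNA processing complex (0.948). Gm5745 shares words with Rpl36-ps8, so reads of one may have been counted in the other, and which of the loci gave the RNA cannot be told apart in most of its length. Gm5612 and Rpl36-ps8 share no word. In the Alyref cross Gm5745 was lower by 3.94 in blastocysts than in non-KO morulae (SE 0.80, edgeR adjusted p = 0.0105). For Gm5612 and Pelp1 the log2 differences were -2.47 (SE 0.47, edgeR adjusted p = 0.00837) and -1.69 (SE 0.28, edgeR adjusted p = 0.00759). These genes were picked for their likeness to Rpl36-ps8, called in this comparison, over the same embryos. Their lower levels in the blastocysts follow from that choice and are not further support. The nearest tested rows of chromosome 4, Gm12996 at 9304 bases and Gm12993 at 34367 bases, averaged 0.592 and 0.213 CPM.

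**Figure D4:**
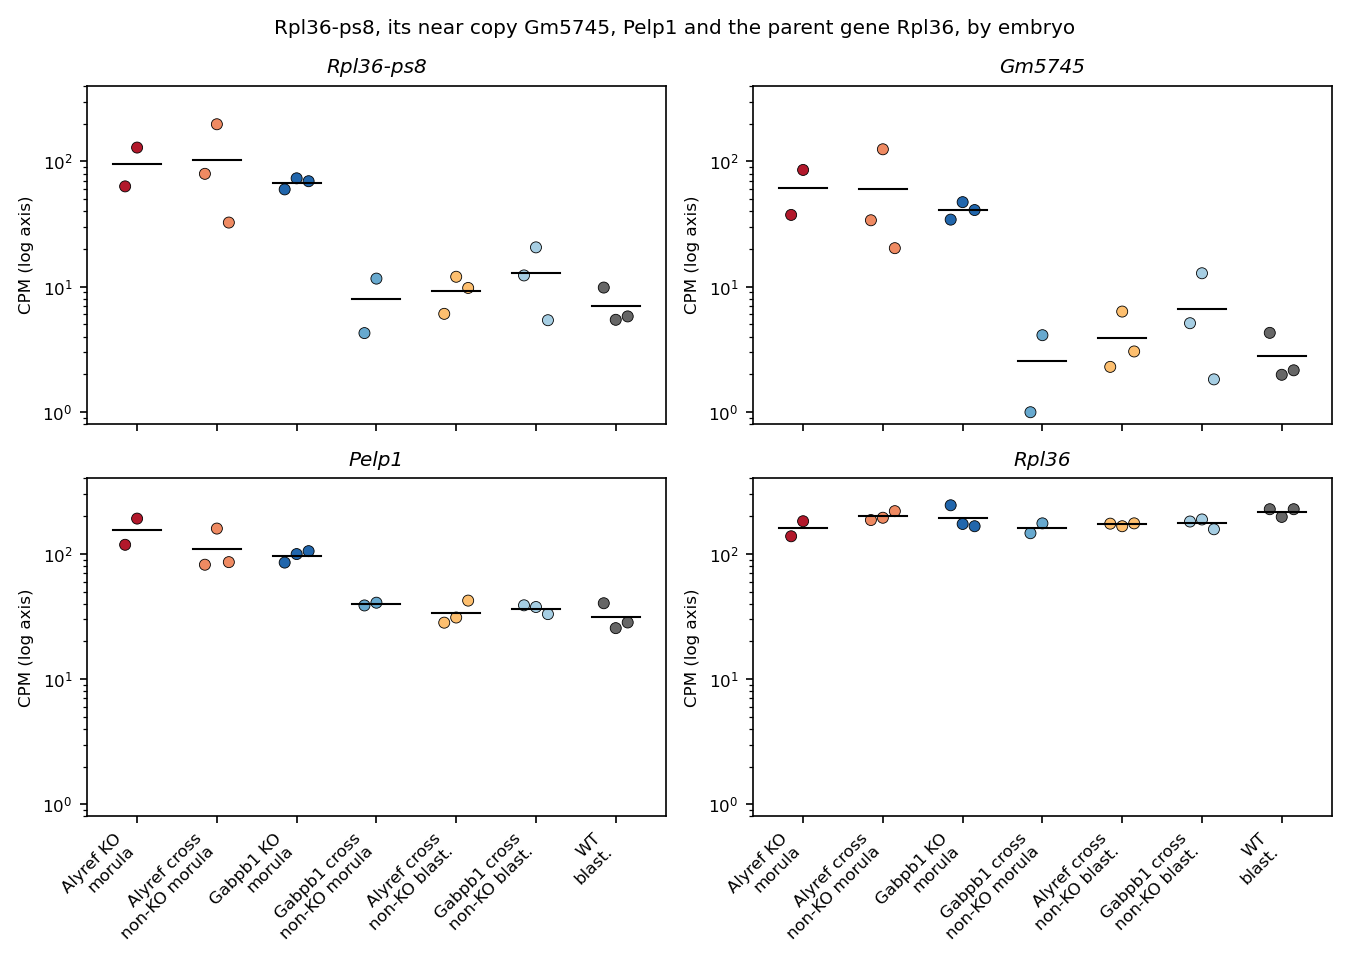
CPM (log axis) in each embryo (points) and group mean (line) for Rpl36-ps8, Gm5745, Pelp1 and the parent Rpl36, by group. Rpl36-ps8 is at 32.5 to 198 CPM in the Alyref cross morulae and the morulae labelled Gabpb1 KO, and at 4.26 to 20.6 CPM in the non-KO morulae of the Gabpb1 cross and all blastocysts, while Rpl36 stays between 138 and 244 CPM.

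The other called members were called only in the Alyref stage comparison, and 5 of them moved by nearly the amount of their parent. Rpl5 encodes a large subunit protein that assembles with the small ribosomal RNA of that subunit and can bind Mdm2. Rpl5-ps1 stood at 276, 395 and 209 CPM in the non-KO morulae and at 144, 139 and 148 in the blastocysts, without overlap, and fell by 1.03 (SE 0.22, edgeR adjusted p = 0.0128). Rpl5-ps2 stood at 186, 259 and 140 CPM against 99.5, 94.5 and 106 and fell by 0.96 (SE 0.23, edgeR adjusted p = 0.0177). Rpl5 itself, at 1010, 1370 and 775 CPM in morulae and 531, 521 and 555 in blastocysts, fell by 0.97 (SE 0.22, edgeR adjusted p = 0.0143). The pseudogenes share 57.3% and 50.0% of their words with Rpl5.

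The stretches below hold the most differences between each Rpl5 pseudogene and Rpl5, in capitals, and show how few bases separate them. Rpl5-ps1 lies at chr1:14865588-14865677 and Rpl5-ps2 at chr2:154704036-154704125, both on the plus strand, and Rpl5 on chromosome 5. Counted from 1 at the left end, parent base first, Rpl5-ps1 differs by C15T, A50T and G90A, and Rpl5-ps2 in its own stretch by C11T, C48A, A50C, G56A and G90C.
Rpl5, stretch of Rpl5-ps1: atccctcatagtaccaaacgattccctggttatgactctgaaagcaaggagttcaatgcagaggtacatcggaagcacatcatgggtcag
Rpl5-ps1: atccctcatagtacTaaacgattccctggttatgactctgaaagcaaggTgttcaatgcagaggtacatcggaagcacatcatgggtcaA
Rpl5, stretch of Rpl5-ps2: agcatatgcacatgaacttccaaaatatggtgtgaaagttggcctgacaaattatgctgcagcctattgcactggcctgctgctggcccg
Rpl5-ps2: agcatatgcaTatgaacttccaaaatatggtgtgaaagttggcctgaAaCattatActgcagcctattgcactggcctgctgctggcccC

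Rps6-ps4 stood at 529, 604 and 446 CPM in non-KO morulae of the Alyref cross and at 355, 321 and 368 in its blastocysts, and fell by 0.60 (SE 0.16, edgeR adjusted p = 0.0255). Rps6 fell by 0.61 (SE 0.15, edgeR adjusted p = 0.0218), and the counts of this pair cannot be told apart by sequence. Rpl9-ps4 (128, 154 and 96.9 against 80.2, 73.4 and 81.9 CPM) fell by 0.68 (SE 0.20, edgeR adjusted p = 0.037), and Rpl9-ps7 (110, 134 and 84.2 against 68.9, 62.0 and 72.2 CPM) by 0.69 (SE 0.21, edgeR adjusted p = 0.0404). Rpl9, a large subunit protein gene, fell by 0.65 (SE 0.20, edgeR adjusted p = 0.0461), and the pseudogenes share 90.6% and 71.7% of their words with it. In these 5 members the groups did not overlap, and in each the second non-KO morula was the highest embryo of the 6. The members were picked by their calls in this comparison, so the lack of overlap is not further support. The share of all genes without overlap was not counted.

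Rps15a-ps2 fell while its parent, the gene of a small subunit protein, was not called. The pseudogene, at 10.7, 19.1 and 10.4 CPM in the non-KO morulae and 7.74, 4.22 and 4.84 in the blastocysts, fell by 1.25 (SE 0.36, edgeR adjusted p = 0.0347), while Rps15a stood at 277, 244 and 205 against 168, 206 and 225 CPM, with a log2 difference of -0.27 (SE 0.24, edgeR adjusted p = 0.461). The groups did not overlap for the pseudogene, which was picked by its call in this comparison, and did for the parent. The member shares 6.98% of its words with Rps15a, and it kept a frame of the parent's length.

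Rps15a-ps2 is printed against its parent because the differences are dense enough to tell many reads apart, again with capitals for differing bases. It is shown from chr19:28742379-28742468 on the minus strand, and Rps15a lies on chromosome 7. They differ at 7 of 90 bases.
Rps15a: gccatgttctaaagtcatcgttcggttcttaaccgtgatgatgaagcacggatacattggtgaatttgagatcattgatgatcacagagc
Rps15a-ps2: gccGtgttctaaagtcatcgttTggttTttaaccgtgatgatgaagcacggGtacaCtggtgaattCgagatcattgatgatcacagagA

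**Figure D5:**
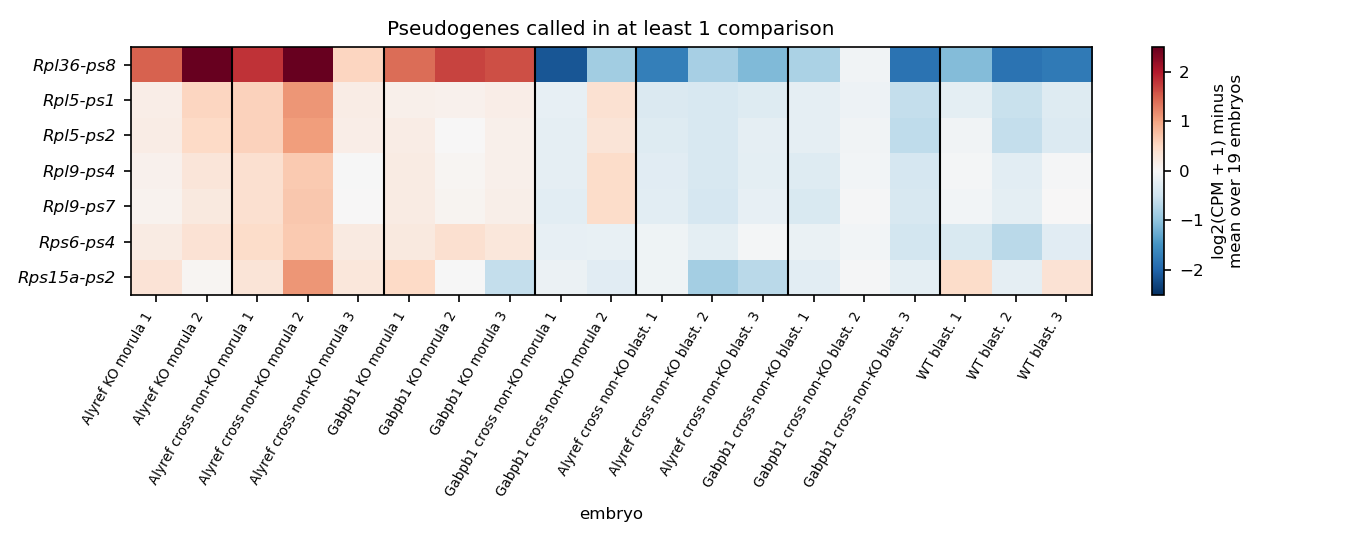
log2(CPM + 1) minus its mean over the 19 embryos (colour) for 7 members called in at least 1 comparison, by embryo and group (black lines). Rpl36-ps8 is high in the Alyref cross morulae and the morulae labelled Gabpb1 KO, and the Rpl5, Rpl9, Rps6 and Rps15a pseudogenes peak in the second non-KO morula of the Alyref cross.

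The calls of the Alyref stage comparison rested on few embryos. Without the second non-KO morula, or without the second blastocyst, 1 member was called, Rpl36-ps8, and without the third morula 23 were called, 7 of them among the 8. There were 2 calls without the first blastocyst, and 4 without the first morula or the third blastocyst. With ERCC scaling Rpl36-ps8 alone was called, against 31 genes higher and 321 lower among all 18410 tested. With only the compared groups in the fit no member was called. The share of all genes called without 1 embryo, or with those groups alone, is not given here. The numbers of calls in those fits are therefore not read as results about the pseudogenes.

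Variation was also measured without regard to group. The median SD of log2(CPM + 1) over the 19 embryos was 0.24 for the 194 members with a mean of 1 CPM or more, and 187 of them were under 0.5. Among the 8 largest were Rpl36-ps8 (1.68), Rps15a-ps8 (0.87), Rplp0-ps1 (0.72), Rpl21-ps8 (0.62), Rps7-ps2 (0.59), Rpl34-ps2 (0.54) and Rpsa-ps4 (0.49), and of the 8 Rpl36-ps8 alone was called in a comparison. Rps15a-ps8 was lowest in the second and the third blastocysts of the Alyref cross, at 0.497 and 0.664 CPM on 8 and 7 counts, while the first held 5.74 CPM on 178 counts. It ranged from 3.07 to 17.3 CPM in the other 16 embryos and from 6.74 to 17.3 in the non-KO Alyref cross morulae. Its stage difference there was -2.12 (SE 0.73, edgeR adjusted p = 0.0625), short of a call.

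Rplp0-ps1, a copy of the gene for the ribosomal stalk protein Rplp0, stood at 102 and 81.1 CPM in the Alyref KO morulae and at 70.3, 104 and 57.9 CPM in the other Alyref cross morulae. In the morulae of the Gabpb1 cross it ranged from 13.6 to 66.6 CPM and in the blastocysts from 26.9 to 55.2 CPM. It shares 11.4% of its words with Rplp0 and 21.9% with Gm8730. Between the non-KO morulae its log2 difference was -1.23 (SE 0.52, edgeR adjusted p = 0.179).

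Rps7-ps2, at 11.6 to 84.7 CPM, aligned to Rps7 over 2.82% of its 1347 bases and shared most words with Odc1, the gene of the first enzyme of polyamine synthesis (18.2% of its words). By sequence its row is not a full-length copy of Rps7. Between the non-KO morulae Rpsa-ps4 had a log2 difference, Gabpb1 cross minus Alyref cross, of 0.96 (SE 0.40, edgeR adjusted p = 0.177), and its parent Rpsa, the gene of a small subunit protein that also serves as a laminin receptor, one of 0.52 (SE 0.22, edgeR adjusted p = 0.182).

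At the threshold of the rule, 7 members had 10 to 12 counts over all embryos, among them Rpl35-ps1 with 10. Just below it, 1 row had 9 counts, Rps18-ps2, and 8 rows had 7.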

How the data were processed

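Per the labels, polyA RNA of single embryos was reverse transcribed, amplified by PCR over 16 cycles and sequenced as Nextera XT libraries with paired reads of 50 and 25 bases. The authors deposited 1 table of raw counts per gene, with a length in bases for each row. The submitters' processing notes name Trimmomatic, Trim Galore, cutadapt, STAR, featureCounts and mm10, with no version or order. How reads matching several places, or strand, were treated is not given in the sources used here. The members and lists were chosen with earlier results of these data known.

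Groups were taken from the labels. Counts were fitted with edgeR 4.0.16 (R 4.3.3), with TMM scaling over gene rows without the 92 ERCC rows and 1 mean for each of 7 groups over 19 embryos, and tested by the quasi-likelihood F test with Benjamini-Hochberg adjustment over 18410 genes that reached 1 FPKM in 2 embryos. SE is the size of the log2 fold change over the square root of F. CPM used TMM-scaled library sizes and FPKM the deposited length. Fits were tested on simulated data. Named members are those called with the 3 genes most like each, the 10 highest by mean FPKM, the 8 with the largest SD of log2(CPM + 1), those at the count threshold and the largest families; identical copies, stretches of sequence and ratios to parents, and members named outside this rule, were chosen after the values were seen. Alternatives were DESeq2 1.42.0, RLE and ERCC scaling, 2 other filters, a replicate block, the compared groups alone and leaving out each embryo. Of all rows, 50604 matched GENCODE M21 by identifier, start and end, so coordinates are GRCm38. Words and local alignments to complete coding transcripts used Biopython 1.88. Stretches are 90 bases without gaps inside the parent's coding sequence, taken where differences are most. Some members that enter the counts are not reported here by name.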

Additional observations from a re-analysis of the deposited data

How the results depend on the processing

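The number of called members in the Alyref KO, Gabpb1 stage and WT blastocyst comparisons stayed at 0 in each alternative run. In the Gabpb1 KO comparison, with 1 call, it was 0 with ERCC scaling, with the filter of 10 counts in 2 embryos and with the compared groups alone, and 4 with DESeq2. Leaving out 1 embryo at a time gave 0 to 1. For the difference between KO effects, with no call, DESeq2 gave 1, and leaving out 1 embryo gave 0 to 1. In the Alyref stage comparison, with 8 calls, there was 1 with ERCC scaling, 3 without a filter, 5 with the filter on counts, 0 with the compared groups alone, 18 with DESeq2 and 1 to 23 without 1 embryo. Between the non-KO morulae, with 1 call, there were 0 with ERCC scaling, 0 with the compared groups alone, 12 with DESeq2 and 0 to 7 without 1 embryo. Without the third non-KO morula of the Alyref cross the counts were 23 (stage), 7 (between the non-KO morulae) and 1 (difference of KO effects). For fits without 1 embryo, the other filters, the replicate block and the compared groups alone, the share of all genes called is not given. Their numbers of calls are not read as results about the members. Where leaving out an embryo left a group with 1, that embryo was assumed to vary like the other groups. A fit with the replicate number as a block called 5 members in the Alyref stage comparison and left the number of calls in the other 6 comparisons as it was. Same-numbered embryos did not deviate together (r from -0.111 to 0.123). Deviations were taken from means of groups of 2 or 3, so this check cannot exclude a pairing. The labels do not name one. No fold change of a called member changed sign under any alternative. Leaving out the member with the most counts, or the 10 that overlap exons of another gene, moved a group's mean share of counts by more than its SD in each of the 7 groups, to between 24.9 and 26.4%. Counts after PCR without molecular identifiers cover counting error only, and for members with few counts depth limits what can be seen.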

Other observations

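The 9 rows with a -ps symbol and the deposited type protein coding are outside the rule above. Rpl9-ps6 was the highest by counts, with 47413 in all and 120 to 264 CPM per embryo, followed by Rpl10-ps3 with 41757 counts and 87.5 to 259 CPM. Rpl27-ps3 had 29826 counts, Rpl36a-ps1 9960, Rps12-ps3 7838 and Rpl7a-ps5 3469. Rpl13a-ps1, Rpl9-ps1 and Rpl36-ps4 were low, with 450, 148 and 19 counts.

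Named -ps pseudogenes of genes other than Rpl and Rps numbered 380 by the same count threshold, of which 254 were tested. Their median log2 fold change was 0.05 in the Gabpb1 KO comparison and -0.07 between the non-KO morulae, nearer to all genes (0.06 and -0.03) than to the ribosomal protein pseudogenes (0.31 and -0.42), and the difference between the lists was not tested.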
